A study of Bos taurus with 8 samples.

Results

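The core pluripotency factors followed here are 10 genes: POU5F1 (OCT4), NANOG, SOX2, SALL4, KLF4, KLF5, MYC, CRIPTO (TDGF1), PRDM14 and OTX2. Every probe whose RefSeq accession belongs to one of these genes was taken, which gave 19 probes of the 26743 that carry a named gene (12603 genes) and of the 43653 probes on the array. RNA was measured in 6 eSLC lines, bovine stem-like cells grown out of embryos, and in somatic cells (SCs), all from HanWoo, the native cattle breed of Korea. In vitro produced embryos gave the IVP-eSLC lines I2 (passage 35) and I9 (passage 30), embryos made by somatic cell nuclear transfer gave the NT-eSLC lines N2 (passage 36) and N7 (passage 30), and parthenogenetic embryos gave the PA-eSLC lines P1 (passage 31) and P4 (passage 36). All eSLCs grew on inactivated STO cells, a mouse feeder layer, in a medium with the inhibitors PD184352, SU5402 and CHIR99021. SCs, at passages 5 and 10, grew in DMEM with serum and without these inhibitors. Each line is 1 culture on 1 array, and the labels do not say whether the SC arrays are independent cultures, so that p-values measure the spread between these arrays.

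POU5F1, NANOG and SOX2 are transcription factors that bind together at the genes of the inner cell mass and of embryonic stem cells, and each of them helps to keep the others on. SALL4, KLF4, KLF5, MYC and PRDM14 work around this core, CRIPTO is a membrane co-receptor for the growth factor NODAL, and OTX2 marks the later, primed epiblast. In cattle, POU5F1 stays on in the trophectoderm of the blastocyst for longer than in mice, and KLF5 is known from both the inner cell mass and the trophectoderm.

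The study lists primers for real-time PCR of some of these transcripts. Those for POU5F1 (labelled OCT4), NANOG and OTX2 are given because at least 1 probe of each gene was detected on only a few arrays, where a measurement by PCR bears most on the probes. They are written 5′ to 3′ in lower case, with no part marked.
POU5F1 forward: gcctggattttcctagcatctac
POU5F1 reverse: ggccaagcaggctttg
NANOG forward: cagggactatggagctcagg
NANOG reverse: ctggatgctgacaatcatgg
OTX2 forward: caatgcagtcaccagccatctcaa
OTX2 reverse: tgcctcctgggacattgatca
The lengths run from 16 bases (POU5F1 reverse) to 24 bases (OTX2 forward). The paper counts OCT4, NANOG, PRDM14 and OTX2 among the genes higher in IVP-eSLCs than in SCs. It states that real-time PCR gave the same direction for such genes. The PCR values were not examined here.

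Signals are the background-subtracted intensities of the scanner divided by the 75th percentile of the array, which is set to 1000. For tests, values under a floor of 13.3 were raised to it and log2 was taken. A probe counts as detected where the scanner software found it well above background. This was so for 71.2% to 76.7% of spots per array, and the 75th percentile ran from 1192 to 4092 scanner units, the highest in N7. Slide 1 held SC P5 with lines N7, I9 and I2 (2818 to 4092 units), and slide 2 held SC P10 with lines P4, P1 and N2 (1192 to 1610 units). The labels of the groups were checked with marker lists, 1 probe a gene. The summed signal of 12 trophectoderm genes was 379744 to 1148180 in the eSLC arrays and 17338 to 17872 in SCs, while that of 10 fibroblast genes was 5611 to 11129 in eSLCs and 709298 to 864202 in SCs. EOMES was the trophectoderm gene not well above background in any line. In bulk RNA, fewer cells of a type and less RNA per cell cannot be told apart.

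**Figure D1:**
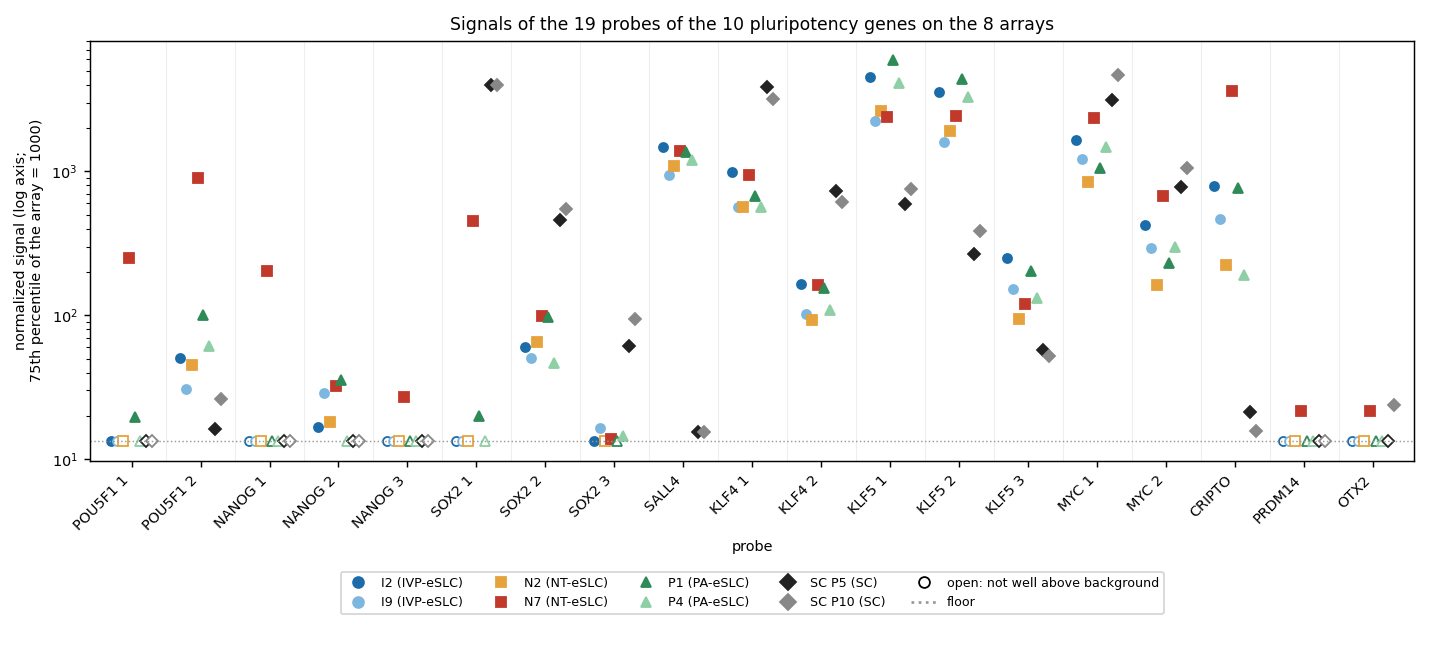
Normalized signal (log axis, 75th percentile of each array at 1000) of the 19 probes on the 8 arrays, with 1 point per array. Probes of a gene are numbered in the order the text gives them, open points are not well above background, and values under the dotted floor of 13.3 are drawn on it. SALL4 and KLF5 lie higher on all 6 eSLC arrays than on the SC arrays, and SOX2 and KLF4 lie lower. In this scanner signal N7 stands above the other lines for POU5F1, NANOG probe 1, SOX2 probe 1 and CRIPTO.

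POU5F1 and NANOG did not pass the test between eSLCs and SCs in the background-subtracted signal. SALL4, KLF5 and CRIPTO were higher in eSLCs than in SCs. SOX2 and KLF4 were lower in eSLCs, as was 1 of the 2 probes of MYC. In limma's test over all probes, 14 of the 19 probes (8 of the 10 genes) could be tested, and 5 probes were called higher and 6 lower at an adjusted p under 0.05 and a 2-fold difference. Over the 34427 probes tested in all, 17% were called higher and 16.5% lower. Of the 14 probes, 13 had eSLC arrays that did not overlap the SC arrays, against 54.5% of all probes tested. No condition had both arrays well above background for the 5 probes not tested, which were POU5F1 probe 1, NANOG probes 1 and 3, PRDM14 and OTX2. For a single probe, the exact two-sided permutation p was taken as 2 times the smaller one-sided p. With 6 against 2 arrays this p cannot fall under 0.0714.

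**Figure D2:**
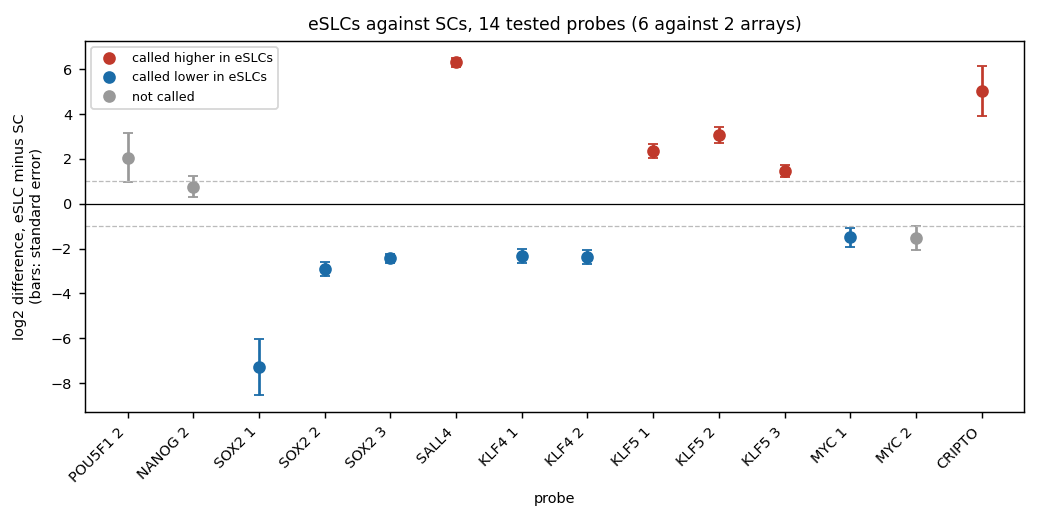
Difference of eSLCs minus SCs on the log2 scale for the 14 tested probes, with the mean of the 3 eSLC origins against the mean of the 2 SC arrays, and bars of 1 standard error. Dashed lines mark a 2-fold difference. SALL4, KLF5 and CRIPTO lie above it, SOX2, KLF4 and MYC below it, and POU5F1 and NANOG have not passed the test.

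POU5F1, the POU-domain factor that defines the inner cell mass, was measured by 2 probes of NM_174580. Probe 2 (A_73_P106936) was well above background on all 8 arrays, with signals of 50.5 in I2, 30.7 in I9, 45.2 in N2, 898 in N7, 101 in P1 and 60.7 in P4, while SC P5 read 16.3 and SC P10 26.0. Every line lay above both SC arrays, and N7 lay 8.91-fold above the next line, P1. The log2 difference of 2.05 (SE 1.10) did not pass the test (limma, adjusted p = 0.183). Without N7 the difference was 1.33 and was called (adjusted p = 0.0425), and without N2 it was 2.77 (adjusted p = 0.00871), so that leaving out either NT line changed the call. Within slides the difference was 2.78 on slide 1 and 1.32 on slide 2. Probe 1 (A_73_P102696) was well above background in N7 at 251, in P1 at 19.6 and in I2 at 11.5, the last of these under the floor, and on no SC array. The other lines read 1.04 to 7.19 and SCs 1.44 and 7.01, so that N7 and P1 alone lay above the floor.

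NANOG, the homeobox factor that keeps the epiblast apart from the hypoblast, has 3 probes of NM_001025344, and they differed. Probe 1 (A_73_115639) was well above background in N7 only, at 202, while the other 5 lines and the SCs lay between -7.29 and 0.846. N7 was therefore at least 15.2-fold above the other lines on this probe. Probe 2 (A_73_P102321) was well above background in 5 lines, with 16.8 in I2, 29.0 in I9, 18.0 in N2, 32.4 in N7 and 35.4 in P1, but not in P4 at 5.80 nor in SC P5 at 6.97 and SC P10 at 2.48. P4 and the SC arrays overlapped, and the log2 difference of 0.77 (SE 0.46) did not pass the test (adjusted p = 0.224). On this probe N7 lay beside P1 and I9, where on probe 1 it stood alone. Probe 3 (A_73_P106926) was well above background in N7 only, at 27.0, and the other 7 arrays lay between -2.52 and 6.83.

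SOX2, the HMG-box partner of POU5F1 that is also expressed in neural and some adult progenitors, was lower in eSLCs on all 3 probes of NM_001105463. Probe 1 (A_73_P037711) read 3978 in SC P5 and 3955 in SC P10. In eSLCs it was well above background in N7 at 450.0 and in P1 at 20.0, and I2, I9, N2 and P4 lay between -0.249 and 1.91. No line reached the SC arrays, and N7 came to 11.3% of their mean. The log2 difference was -7.28 (SE 1.25, adjusted p = 0.00643), a value that depends on the floor since 4 lines lie under it. The call was lost with the SC arrays counted as 1 sample (adjusted p = 0.0763), without SC P5 (0.0804) and without SC P10 (0.0764). In IVP-eSLCs, where neither array was well above background, SOX2 was at least 441-fold lower than in SCs on this probe (adjusted p = 0.0110), a call that was lost when I2, I9 or either SC array was left out (adjusted p of 0.0570 to 0.0880).

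The second SOX2 probe (A_73_P102401) was well above background on all 8 arrays. It read 60.4 in I2, 50.5 in I9, 64.8 in N2, 99.4 in N7, 96.4 in P1 and 46.8 in P4, against SC signals of 459 (P5) and 551 (P10). The log2 difference was -2.91 (SE 0.33, adjusted p = 0.00141). N7 and P1 lay together at the top of the lines here, where N7 was 22.6-fold above P1 on probe 1. Probe 3 (A_73_P404936) read 8.71 to 16.4 in eSLCs, with 4 of 6 arrays well above background, against 61.2 and 94.6 in SCs, and differed by -2.44 (SE 0.21, adjusted p = 0.000514). The direction was shared by the 3 probes in the scanner signal, and the order of the lines was not. With the authors' values, scaled in the same way, probe 2 lay under the floor on every array and was not called.

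SALL4, a zinc finger factor that binds with POU5F1, gave the most uniform difference. Its probe (A_73_P074826, NM_001192836) read 1464 in I2, 948 in I9, 1079 in N2, 1374 in N7, 1361 in P1 and 1188 in P4, while SC P5 read 15.5 and SC P10 15.4. All lines were far above SCs, and the lines spanned 1.54-fold, a smaller range than that of the middle probe of the array (0.63 against 0.94 on the log2 scale). The log2 difference was 6.30 (SE 0.21, adjusted p = 1.94e-05), and it was called in IVP-, NT- and PA-eSLCs alike, at 6.25, 6.30 and 6.36.

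KLF4, a Krüppel-like factor of the reprogramming cocktail that is also common in differentiated epithelia and fibroblasts, was lower in eSLCs on both probes of NM_001105385. Probe 1 (A_73_100761) read 990.0 in I2, 566 in I9, 564 in N2, 941 in N7, 671 in P1 and 567 in P4, while SC P5 read 3855 and SC P10 3196. The log2 difference was -2.34 (SE 0.30, adjusted p = 0.00232). Probe 2 (A_73_P282306) read 92.5 to 164 in eSLCs and 725 and 613 in SCs, a difference of -2.39 (SE 0.31, adjusted p = 0.00241). On both probes I2 and N7 were the highest lines, N2 was the lowest, and no line overlapped the SC arrays.

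KLF5, a Krüppel-like factor of the early embryo that favours trophectoderm and self-renewal in mice, was higher in eSLCs on all 3 probes of NM_001083727. Probe 1 (A_73_112201) read 4548 in I2, 2221 in I9, 2602 in N2, 2382 in N7, 5942 in P1 and 4108 in P4, against SC signals of 594 (P5) and 757 (P10). The log2 difference was 2.34 (SE 0.32, adjusted p = 0.00275). Probe 2 (A_73_P264976) read 1591 to 4388 in eSLCs and 265 and 383 in SCs, a difference of 3.08 (SE 0.36, adjusted p = 0.00157). P1 and I2 led the lines on both probes, and N7 had no excess. Probe 3 (A_73_P367701), read at 94.5 to 249 in eSLCs and at 57.7 and 52.2 in SCs, differed by 1.46 (SE 0.27, adjusted p = 0.00844), and its call was lost with the SC arrays counted as 1 sample or with either of them left out (adjusted p of 0.0720 without SC P5 and 0.0837 without SC P10).

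MYC, the growth regulator of the reprogramming cocktail, was lower in eSLCs, by a small margin, on probes of NM_001046074. Probe 1 (A_73_114860) read 1640 in I2, 1212 in I9, 844 in N2, 2330 in N7, 1058 in P1 and 1485 in P4, while SC P5 read 3109 and SC P10 4665. The log2 difference of -1.49 (SE 0.43) was called (adjusted p = 0.0367), and the call was lost when any 1 array other than N2 and N7 was left out (-1.20 to -1.79 over the 8 arrays left out in turn) and with the slide as a block (adjusted p = 0.0533). Probe 2 (A_73_P461976) read 162 to 669 in eSLCs and 777 and 1051 in SCs, and its difference of -1.54 (SE 0.54) did not pass (adjusted p = 0.0668). N7 was the highest line and N2 the lowest on both probes. The difference was -0.90 and -0.84 within slide 1 and -2.09 and -2.24 within slide 2, for probes 1 and 2.

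CRIPTO, the NODAL co-receptor and a marker of undifferentiated stem cells, was higher in every line and the most variable of the genes called higher. Its probe (A_73_120792, NM_001080358) read 786 in I2, 467 in I9, 223 in N2, 3585 in N7, 762 in P1 and 192 in P4, while SC P5 read 21.4 and SC P10 15.7. The lines spanned 18.7-fold, a range exceeded by fewer than 2% of probes (98.3% had a smaller one), and N7 was 4.56-fold above I2. The log2 difference was 5.01 (SE 1.12, adjusted p = 0.0159). It lost its call with the SC arrays counted as 1 sample (adjusted p = 0.126), without I2 (adjusted p = 0.0547), without SC P5 (0.121) and without SC P10 (0.137), though the difference stayed between 4.34 and 5.68 over the 8 arrays left out in turn. Within slides it was 5.68 on slide 1 and 4.34 on slide 2.

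PRDM14, a chromatin regulator of naive pluripotency and of germ cells, and OTX2, a homeobox factor of the primed epiblast, were near the limit of detection. PRDM14 (A_73_103723, NM_001191264) was well above background in N7 only, at 21.6, and the other 7 arrays lay between -0.122 and 3.48. OTX2 (A_73_P080266, NM_001193201) was well above background in N7 at 21.8 and in SC P10 at 23.7, and the others lay between 1.82 and 9.32. The SC arrays were apart for OTX2, with SC P5 at 1.82, and neither gene could be tested.

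Among origins, the members were called against SCs in numbers near those of the eSLCs as a whole, and no member passed the test between origins. In IVP-eSLCs 5 probes were called higher and 5 lower (15.4% and 15.1% of all probes), in NT-eSLCs 4 and 5 (13.3% and 14.2%), and in PA-eSLCs 4 and 5 (17.2% and 15.7%). These comparisons share the SC arrays. MYC was called in none of them (adjusted p of 0.0595 to 0.166 over the 2 probes). CRIPTO was called in IVP-eSLCs (5.04, adjusted p = 0.0363) and NT-eSLCs (5.60, adjusted p = 0.0284) but not in PA-eSLCs (4.38, adjusted p = 0.0512), and the difference between these origins was not past the test (PA minus IVP -0.67, SE 1.37, adjusted p = 0.968). Both IVP arrays lay on slide 1, and with the slide as a block CRIPTO was not called in IVP-eSLCs (3.93, adjusted p = 0.0768). Its calls in IVP- and NT-eSLCs were both lost when I2, I9, P1, P4 or an SC array was left out (adjusted p of 0.0544 to 0.187).

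Between NT- and IVP-eSLCs limma called 0 of the 14 probes and 0% of all probes. At an unadjusted p under 0.05 it found 1 member probe and 1040 probes in all (3.02%), and 0 members were called by the methods' t-test after adjustment. With N2 left out, so that N7 stood alone for the NT lines and was taken to vary like the others, 393 of 35528 probes were called higher than in IVP-eSLCs, SOX2 probe 1 among them (5.08, adjusted p = 0.00823). NANOG probes 1 and 3 and POU5F1 probe 1 entered that fit only through N7, where they are high, so their calls there are no evidence of a difference. Between PA- and IVP-eSLCs limma also called 0 of the 14 probes and 0% of all probes, with 0 member probes and 2048 probes in all (5.95%) at an unadjusted p under 0.05, and 0 members by the methods' t-test after adjustment. The sizes of these differences ran up to 2.54 for NT minus IVP (SOX2 probe 1, SE 1.53) and up to 0.99 for PA minus IVP (POU5F1 probe 2, SE 1.34). Arrays of NT and IVP lines did not overlap on 2 of the 14 probes, against 23.2% of all probes, and those of PA and IVP lines on 1, against 34.6%.

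In the scanner signal, line N7 stood apart from the other lines within the core. It was at least 2-fold above each of the other 5 lines on 6 of the 19 probes, which belong to POU5F1, NANOG, SOX2 and CRIPTO. The authors' values of N2 and N7 lay close on POU5F1 probe 2 (8411 and 8799), NANOG probe 1 (17766 and 17230) and CRIPTO (1701 and 1709). For POU5F1 probe 1 (1609), NANOG probe 3 (176) and SOX2 probe 1 (2848), N7 was the highest line in those values too. On the 14 tested probes this held for 3, against 2.13% of all probes, and for no member probe in I2, I9, N2, P1 or P4, against 0.386%, 0.151%, 0.279%, 1.62% and 0.166% of all probes. Set against the whole range of the lines, the gap between N7 and the rest passed 0.625 on 2 of the 14 tested probes, POU5F1 probe 2 and SOX2 probe 1, and 9.24% of all tested probes had a line so far apart. N7 was well above background on all 19 probes, the other lines on 12 to 14 and the SC arrays on 13 and 14, and on 4 probes N7 was the only line detected. They were NANOG probe 1, at 202 in N7, and NANOG probe 3, PRDM14 and OTX2, which lay close to the floor at 27.0, 21.6 and 21.8. How many of all probes were detected in N7 alone among the lines was not counted, so these 4 have no background share. The share of spots well above background in N7, 76.7%, was the highest of the 8 arrays, as was its 75th percentile, and their part in these detections was not tested. KLF5 and SALL4 showed no excess of N7, at 0.401-fold to 0.938-fold of the highest other line.

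Other genes moved with the core in N7. Of 4 hypoblast genes with a probe, 3 were at least 2-fold above each other line in N7, where 2.36% of named genes were. HNF4A, a nuclear receptor of visceral endoderm and liver, read 9022 in N7 and 8.17 to 23.4 in the other lines, and GATA4, a zinc finger factor of primitive endoderm, read 2918 against 23.1 to 180. The summed signal of the 4 hypoblast genes was 13378 in N7, 158 to 435 in the other lines, and 5626 (SC P5) and 5195 (SC P10) in SCs. PDGFRA made up most of the SC sums, at 5580 and 5157 against 1422 in N7. In SCs, HNF4A read 3.62 and 4.37 and GATA4 19.2 and 18.4. AFP, a product of visceral endoderm, read 15.9 in N7 and 20.1 to 26.7 in the other lines. KIT, the receptor of primordial germ cells and other progenitors, read 724 in N7 and was not well above background in the other lines or in SCs. PRDM1, a repressor that helps set up primordial germ cells, read 337 in N7 against -0.577 to 8.40 in the other lines. In SCs it read 415 (P5) and 302 (P10). Of the other germline genes, DAZL was not well above background in any line, and DDX4 read 42.2 in N7 and 38.0 in P1. TFAP2C read 10692 in N7 and 9294 to 16958 in the other lines. CDH2, the N-cadherin of primed epiblast and mesenchyme, read 3894 in N7 against 76.0 to 214 in the other lines. In SCs it read 2022 (P5) and 3467 (P10). Of the primed-state genes, 4 were at least 2-fold above each other line in N7. In the other direction, 1 was 2-fold below, the WNT antagonist SFRP2, at 14.9 in N7 and 42.5 to 203 in the other lines. The trophectoderm sum was lowest in N7, at 379744 against 563300 to 1148180, and so was the sum of 9 housekeeping genes, at 601307 against 766266 to 1461830. Gene by gene, KRT8, KRT18, PAG2, GATA3, HAND1 and TFAP2A were lowest in N7, while CDX2, GATA2, TFAP2C, ELF5 and ETS2 were not. KRT8 and KRT18, at 135062 and 130603, made up most of the trophectoderm sum in N7. ACTB, GAPDH, RPLP0 and YWHAZ were lowest in N7, and the other housekeeping genes were not. The scanner level by which signals were divided was highest in N7, at 4092 units. Its part in these sums was not tested. Which cells of the N7 culture held these transcripts was not tested.

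**Figure D3:**
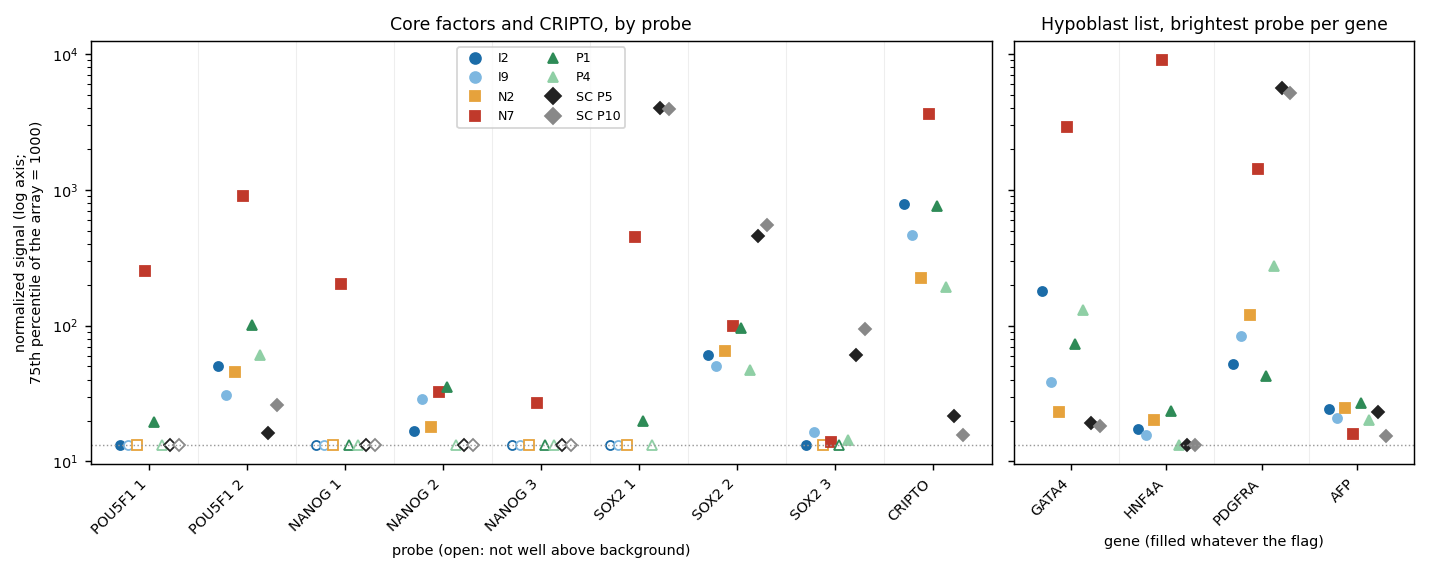
Normalized signal (log axis, 75th percentile of each array at 1000) of the POU5F1, NANOG, SOX2 and CRIPTO probes (left) and of the 4 hypoblast genes with a probe (right), with 1 point per array and values under the dotted floor of 13.3 drawn on it. In this scanner signal N7, the filled red square, stands above the other lines for both POU5F1 probes, NANOG probe 1, SOX2 probe 1, CRIPTO, GATA4, HNF4A and PDGFRA. It does not for SOX2 probes 2 and 3 or AFP.

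The wider pluripotency program was described on gene lists, with the brightest probe of each gene, against 19.4% of 10955 named genes called higher in eSLCs and 15.4% called lower, and a median log2 difference of 0.23. Of 16 general pluripotency genes, 7 had a probe and 6 were tested, of which 5 were called higher and 0 lower, with a list median of 3.86. EPCAM, an epithelial adhesion molecule, differed by 8.84 (adjusted p = 4.43e-05), LIN28A, an RNA-binding partner of pluripotency, by 4.28 (adjusted p = 3.44e-05), and DPPA2 and DPPA4, a chromatin-binding pair of the early embryo, by 5.33 and 3.45. TERT, the telomerase subunit, did not pass (0.45, adjusted p = 0.294). Of 12 naive-state genes 6 had a probe and 4 were tested, and 1 was called higher, SUSD2, a surface marker of naive human cells (6.60, adjusted p = 0.00597).

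Primed-state and NODAL genes were mixed. Of 10 primed-state genes 9 had a probe and 7 were tested. DNMT3B, a DNA methyltransferase, was called higher (4.59, adjusted p = 0.00862), and FGF5 (-2.12, adjusted p = 0.000789) and the WNT antagonist SFRP2 (-6.35, adjusted p = 0.00149) were called lower, with a list median of -0.28. FGF5 and TBXT, the mesoderm factor brachyury, were not well above background in any eSLC line, while ZIC2, CDH2, NODAL and LEFTY2 were at least 2-fold above each other line in N7. Of 8 genes around CRIPTO and NODAL signaling, 5 had a probe, and 2 were called higher and 0 lower. They were ACVR2B, a type II activin receptor (2.50, adjusted p = 0.000177), and FURIN, the protease that cleaves pro-NODAL (3.06, adjusted p = 0.00283). NODAL itself was well above background in N7 alone among all arrays, at 39.3.

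Among 32 relatives of the members, 22 had a probe and 19 were tested, of which 4 were called higher and 2 lower, with a median of 0.07. SOX15, a SOX gene of placenta and muscle precursors, was 4.96 higher (adjusted p = 0.000446), and MAX, the partner that MYC needs to bind DNA, was 1.64 higher (adjusted p = 0.00595), against the lower MYC. PRDM1 was lower (-3.96, adjusted p = 0.0371), as was the photoreceptor homeobox gene CRX (-1.53, adjusted p = 0.0062), and PRDM1 was well above background in N7 alone among the lines. Of 6 germline genes 5 had a probe and 2 were tested, with TFAP2C, shared with the trophectoderm list, higher and PRDM1 lower. For comparison, 8 of 11 tested trophectoderm genes were called higher and 0 lower (median 6.72), 0 of 10 fibroblast genes higher and 9 lower (median -6.21), and 0 of 4 hypoblast genes higher and 1 lower. CDX2, the homeobox factor of trophectoderm, differed by 9.40 (adjusted p = 1.31e-05). The part of the trophectoderm and fibroblast differences in those of the core was not tested.

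The genes most like each member over the 6 lines were read from 9110 named probes that were well above background in all 6 and spanned at least 2-fold. These are descriptions over 6 arrays that share N7 as an extreme, and no test was made. SALL4 and KLF4 spanned less than 2-fold and were not used, and NANOG, PRDM14 and OTX2 were not well above background in all lines. POU5F1 probe 2 was closest to the WNT receptor FZD4 (r = 0.988, and 0.918 over the 5 lines without N7), SMOX (0.984 and 0.839) and ELOVL7 (0.983 and 0.926). CRIPTO was closest to the growth factor gene IGF2 (0.987 and 0.959), NGFR and ST3GAL3. MYC probe 1 was closest to SLC39A14 (0.994 and 0.987), JCAD and GAR1, and SOX2 probe 2 to GLUL (0.986 and 0.983), ADD3 and LOC783879.

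KLF5 had the closest neighbours. Its probe 1 followed the autophagy receptor gene CALCOCO2 at r = 0.9999, with and without N7, and ATXN3 (0.995) and FADS3 (0.994) came next. CALCOCO2 read 2848 in I2, 1316 in I9, 1577 in N2, 1430 in N7, 3845 in P1 and 2601 in P4. Of the 9110 probes, 559 had an r of at least 0.9 with KLF5, 214 with MYC, 128 with POU5F1, 68 with CRIPTO and 15 with SOX2, so that high values were common for KLF5.

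The authors also deposited their own normalized value for each probe and array, and for several members it differed from the scanner signal. For 6 of the 19 probes, the authors' values of the 2 arrays of each condition were within 10% of each other in all 4 conditions, as they were for 2.6% of all 43653 probes. These were POU5F1 probe 2, NANOG probe 1, MYC probe 1, SALL4, CRIPTO and PRDM14, and the scanner signals, raised to the floor, met this for 0 of the 19. Over all probes the scanner signals met it for 18.7%, a share that includes probes at the floor on every array. Over the tested probes alone, the shares were 3.28% for the authors' values and 2.07% for the scanner signals. For POU5F1 probe 2 the authors' values were 12545 and 13188 in I2 and I9, 8411 and 8799 in N2 and N7, 4369 and 4323 in P1 and P4, and 286 and 285 in SC P5 and SC P10. Here the lines of each origin lay side by side, where the scanner signals of N2 and N7 were 19.9-fold apart and N7 alone was bright.

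For NANOG probe 1 the authors' values were 9485 and 9846 in IVP-eSLCs, 17766 and 17230 in NT-eSLCs, 16838 and 16762 in PA-eSLCs and 263 and 282 in SCs, while the scanner found this probe well above background in N7 only. For PRDM14 they were 3395 and 3315, 2863 and 2816, 1874 and 1891, and 572 and 587 in the same order, with N7 again the only array detected by the scanner. CRIPTO had authors' values of 1701 in N2 and 1709 in N7, where the scanner signals were 16.1-fold apart. SALL4 and MYC probe 1 kept the direction of the scanner, at a log2 difference of 5.87 and -1.85 on the authors' values as deposited.

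The other 13 probes did not share this pattern. For POU5F1 probe 1 the authors' values were 1609 in N7 and 2.63 to 34.2 in the other lines, and for SOX2 probe 1 they were 2848 in N7, 2.10 to 34.5 in the other lines, 10708 in SC P5 and 5743 in SC P10, so that N7 stood out in both sources. Over all probes the rank correlation of the authors' values with the scanner signals was 0.96 to 0.98 in each array. The authors' values had medians of 119 (P4) to 501 (N7) and were not scaled to a common level between arrays. With the authors' values in place of the scanner's and the same scaling and test, POU5F1 probe 2 was called higher in eSLCs (4.79, adjusted p = 0.000693). The scanner software's own processed signal had a rank correlation of 0.16 to 0.22 with the background-subtracted signal in 6 of the 8 arrays (0.97 in I2 and N2). Over the 19 member probes alone it was 0.57 in I2 and 0.43 in N2. With the processed signal, limma called POU5F1 probe 2 higher in eSLCs (5.26, adjusted p = 0.0366), as it did SALL4 and CRIPTO. Which of the sources is right was not tested.

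**Figure D4:**
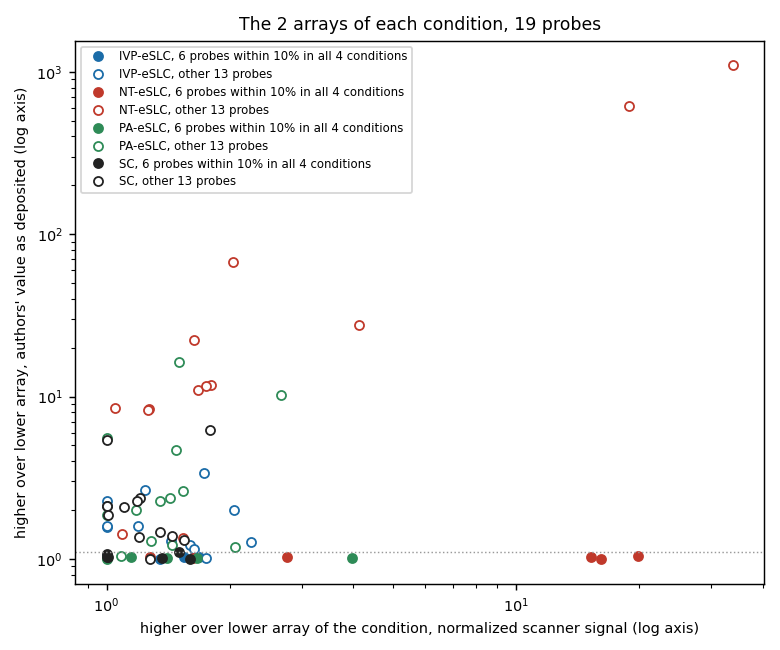
Ratio of the higher to the lower array of each condition for the 19 probes, in the normalized scanner signal with values under the floor raised to it (horizontal, log axis) and in the authors' values as deposited (vertical, log axis), with 1 point per probe and condition. Filled points are the 6 probes whose authors' values lie within 10% (dotted line) in all 4 conditions, and the NT-eSLC pair of POU5F1 probe 2, CRIPTO and NANOG probe 1 is 15.2-fold to 19.9-fold apart in the scanner signal.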

How the data were processed

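RNA of 6 eSLC lines and of SCs at 2 passages was labelled with 1 dye and hybridized to 8 Agilent bovine arrays. The authors scanned the arrays with Feature Extraction and normalized them with GeneSpring, and the deposited files hold linear signal intensities of each spot and a table of the authors' normalized intensities. Control spots and outlier spots (0 to 5 per array) were left out, and spots of a probe were averaged. No spot was saturated. Per the file headers the design was annotated on another genome build than the RefSeq table used for names, so no coordinates are given, and 26743 of 43653 probes matched a gene. Background-subtracted intensities were scaled to the 75th percentile, raised to a floor (13.3, the largest per-array minimum among detected probes) and taken to log2. The 34427 probes detected on both arrays of some condition were fitted with limma (version 3.58.1, R version 4.3.3), with a mean per condition and Benjamini-Hochberg adjustment over all of them. On simulated data with 200 of 34414 probes changed 4-fold, eSLCs against SCs recovered 42% with 0 wrong signs and 3 unchanged probes called. A fold given as "at least" sets the mean of the brighter group against, in each array, the larger of its weakest detected signal and the probe's own. Figures were drawn with matplotlib version 3.10.9. All members and all their probes are named, and from other lists up to 4 genes with the largest difference among those called, other genes being named after their values were seen. The genes most like a member have the highest Pearson r over the 6 lines. A few list genes are not reported here and were left out of the list counts. The members and lists were chosen with earlier results of these data known. The alternatives were scaling, background correction, floor, filter, other fits, the slide as a block, the methods' t-test and leaving out each array. The within-slide values and the comparison of each line with the other lines were added after seeing the data. The number of arrays limits the precision.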

Additional observations from a re-analysis of the deposited data

Results flagged for a closer look

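On 7 of the 19 member probes, N7 lay apart from the other 5 eSLC arrays in the scanner signal. The gap was more than 0.625 of the whole range on the log2 scale. The gap was 0.867 of the range for POU5F1 probe A_73_P102696, 0.648 for POU5F1 probe A_73_P106936, 0.884 for SOX2 probe A_73_P037711, and 1 for NANOG probes A_73_115639 and A_73_P106926, PRDM14 and OTX2, where the other lines were all at the floor. Of 34414 tested probes with a value on every array, 9.24% had a line apart by the same measure, and N7 was that line for 1243 of 3181. Of the 7 member probes 2 were among those tested (POU5F1 probe 2 and SOX2 probe 1), and the other 5 have no such background. The nominal rate of about 1 in 20 groups assumes normally distributed values without a floor, and does not hold here. Where the other 5 lines are all at the floor, a gap of 1 follows from the floor itself. For NANOG probe 2, SOX2 probes 2 and 3, SALL4, KLF4, KLF5, MYC and CRIPTO no line was apart by this measure.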

How the results depend on the processing

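With the processed signal, which did not follow the background-subtracted signal in 6 arrays, 3 member probes were called higher and 0 lower in eSLCs. They were POU5F1 probe 2 (5.26, limma, adjusted p = 0.0366), SALL4 (5.86) and CRIPTO (4.75). Over all 34427 probes, 403 were called higher and 389 lower. In each origin 0 member probes were called in either direction. All probes gave 88 higher and 96 lower in IVP-, 104 and 102 in NT-, and 118 and 141 in PA-eSLCs. In eSLCs against SCs, KLF4 (0.34 and 1.04), NANOG probe 2 (-2.52), KLF5 probe 2 (-1.94) and MYC probe 2 (1.43) changed sign. With the SC arrays as 1 sample, 3 probes were called higher in eSLCs, 2 higher and 2 lower in IVP-, 1 and 1 in NT-, and 3 lower in PA-eSLCs. With the brightest probe per gene, which leaves 8 member probes, the counts were 3 and 3 in eSLCs, 3 and 2 in IVP-, and 2 lower in NT- and in PA-eSLCs. Of the 10958 probes in that fit, 2155 and 1722 were called in eSLCs and 1937 and 1604 in IVP-eSLCs. It called 1528 lower in NT- and 1633 lower in PA-eSLCs. The authors' values called 2 lower in IVP- and 1 in NT-eSLCs, and the filter on all 8 arrays 3 lower in each. Over all probes, the authors' values called 3369 and 3077 of 34427 lower in IVP- and NT-eSLCs. The filter called 3824 and 3560 of 27500 lower there. The methods' t-test after Benjamini-Hochberg called 1 higher and 2 lower in IVP-, 1 and 0 in NT-, and 1 and 2 in PA-eSLCs. Of all 34427 probes it called 1227 and 1442, 447 and 616, and 2170 and 2282 in the same order. With 2-fold differences and no test, 1 probe (POU5F1 probe 2) was higher in NT- than in IVP-eSLCs, as were 670 of 31910 probes in all. Over the arrays left out in turn, the probes called higher ran from 3 (without SC P5 or SC P10) to 8 (without N2) and lower from 4 to 7 in eSLCs, 1 to 5 and 2 to 7 in IVP-, 1 to 7 and 1 to 7 in NT-, 3 to 6 and 2 to 7 in PA-eSLCs, and 0 to 4 higher in NT- against IVP-eSLCs (4 without N2, of which 3 entered the fit only through N7). SALL4 was called in eSLCs against SCs in all 23 alternatives. Over all probes, eSLCs against SCs gave 11523 calls, 792 with the processed signal, 7013 with the SC arrays as 1 sample, 3877 with the brightest probe per gene and 6865 to 11689 over the arrays left out. The planned normexp correction of the mean signal was not run, since the scanner columns analysed here give median and not mean signals, and the median signal, chosen after seeing the data, took its place. No paired analysis was possible because the labels give every sample replicate number 1, and the numbers used here only name the arrays of a group. Probes near the floor had too little signal over background for a difference between lines to be measured.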
